A study of Mus musculus with 11 samples.

Results

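The 10 genes described here are markers of alveolar macrophage identity: Siglecf, Marco, Itgax, Mrc1, Chil3, Ear1, Ear2, Krt79, Cpne5 and Car4. They were chosen by name, with earlier results of these data known. All 10 are among the 12932 genes of the processed RNA-seq table. The table holds 3 groups of sorted mouse cells, and every group carries floxed Rxra and Rxrb alleles. Mature alveolar macrophages (mAMs, CD11b- SiglecF+) of CD11cCre- Rxrabfl/fl mice form the control group, named mAM_WT (4 libraries). The same gate in CD11cCre+ Rxrabfl/fl mice gave the Cre+ mAMs, named mAM_KO (4 libraries). The CD11b+ SiglecF+ gate in mice of that Cre+ genotype gave the immature alveolar macrophages (ImmAMs), named Imm_KO (3 libraries, replicates 2 to 4). There was no ImmAM library from control mice, so genotype and sorting gate cannot be told apart in ImmAMs against control mAMs. The mice were 9 weeks old and of both sexes, on a C57BL/6J background, and 40000 cells went into a library. Cre is driven by the promoter of Itgax, which is itself one of the 10 markers, and the product of Siglecf was the positive gate for all 3 groups.

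Alveolar macrophages live on the inner surface of the air sacs, where they take up surfactant and inhaled particles. They form around birth from fetal monocytes under GM-CSF and TGFβ and maintain themselves locally, and they can also be replaced by circulating monocytes. RXRα and RXRβ are nuclear receptors that pair with other receptors such as PPARγ and LXR. The markers fall into 4 roles: lectins and a scavenger receptor on the surface (Siglecf, Mrc1, Marco), an integrin chain (Itgax), secreted proteins (Chil3, Ear1, Ear2), and a keratin, a copine and a carbonic anhydrase (Krt79, Cpne5, Car4).

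Libraries held 16659960 to 37873532 counted reads. The study used 3 of the 4 Cre+ mAM libraries, so replicate 4 was kept out of the fit. Its value is given beside the others for each marker. Every marker was at 5.45 CPM (reads per 1e6 counted reads, on library sizes scaled by the authors) or more in every library, with at least 91 reads, so none passed the filter on low values through 1 group alone. Rxra was at 344 ± 29.0 CPM in control mAMs (SD, n = 4) and 344 ± 9.12 in Cre+ mAMs (n = 3), and Rxrb at 59.8 ± 9.29 and 46.1 ± 6.79. Whole-gene values cover the exons that Cre does not remove, so they do not check the deletion. Every library held reads of both Xist (55.5 to 539 CPM) and the Y-linked Ddx3y (39.7 to 107 CPM), so a library may hold cells of more than 1 mouse, and n counts libraries. Among the Cre+ mAM libraries Xist was lowest in replicate 2.

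The promoter windows of 4 markers are given first, since Ear1 and Ear2 are near-copies, Krt79 had the largest difference of the 10 markers in Cre+ mAMs and Chil3 was the marker that did not go down in ImmAMs. Each is the 250 bases before the RefSeq start on GRCm38.p6, 5′ to 3′ on the gene's strand. In Ear1 and Ear2 capitals mark the bases that differ between both windows or face a gap in their alignment. In Chil3 capitals mark a STAT motif (TTCNNNGAA), and in Krt79 no motif was found and all letters are in lower case.
Ear1 (chr14:43819640-43819889, minus strand): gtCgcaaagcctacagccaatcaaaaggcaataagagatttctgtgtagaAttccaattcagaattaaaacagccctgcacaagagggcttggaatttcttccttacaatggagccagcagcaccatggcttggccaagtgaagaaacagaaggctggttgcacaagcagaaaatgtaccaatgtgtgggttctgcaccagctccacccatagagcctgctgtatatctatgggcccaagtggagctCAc
Ear2 (chr14:44102404-44102653, plus strand): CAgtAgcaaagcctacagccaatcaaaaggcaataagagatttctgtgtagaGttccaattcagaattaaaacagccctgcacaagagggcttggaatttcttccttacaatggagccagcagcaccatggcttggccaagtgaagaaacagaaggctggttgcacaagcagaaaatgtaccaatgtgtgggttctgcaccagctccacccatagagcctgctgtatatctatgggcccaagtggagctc
Chil3 (chr3:106167565-106167814, minus strand): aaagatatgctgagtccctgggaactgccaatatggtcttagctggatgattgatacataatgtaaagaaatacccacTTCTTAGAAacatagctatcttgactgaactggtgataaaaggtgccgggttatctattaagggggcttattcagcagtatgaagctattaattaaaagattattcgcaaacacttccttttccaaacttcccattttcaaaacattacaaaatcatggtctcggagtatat
Krt79 (chr15:101940325-101940574, minus strand): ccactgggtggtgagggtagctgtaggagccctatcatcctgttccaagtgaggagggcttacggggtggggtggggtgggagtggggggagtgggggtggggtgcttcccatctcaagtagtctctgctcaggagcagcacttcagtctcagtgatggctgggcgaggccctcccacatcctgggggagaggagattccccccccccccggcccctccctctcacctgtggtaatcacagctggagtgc

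The windows of Ear1 and Ear2 were identical in 246 of 252 aligned columns (97.6%), with 2 substitutions and 2 bases in each window that face a gap. All 10 markers had a window in the RefSeq table. It was searched on both strands for 4 motifs that do not overlap one another in the marker windows: the nuclear receptor half-site AGGTCA, the PU.1 core GAGGAA, the AP-1 motif TGAGTCA and the STAT motif. AGGTCA was in 0 of the 10 windows and in 14.0% of 32536 distinct promoter windows of the same length. GAGGAA was in 3 of the 10 windows (Siglecf, Marco and Mrc1), near its share of 23.4% of all. TGAGTCA was in the Itgax window and in 4.5% of all, and the STAT motif was in the Chil3 window and in 7.0%. These are matches of letters in a short window and say nothing of binding.

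Taken per length of transcript, the secreted proteins led the markers in control mAMs. Chil3 was at 10502 ± 1498 CPM per kb (SD, n = 4), Ear2 at 2977 ± 230 and Ear1 at 1323 ± 97.2. Mrc1 (461 ± 48.4 CPM per kb) and Itgax (402 ± 18.4) came next and overlapped between libraries. Krt79 followed at 320 ± 33.0 CPM per kb, Car4 at 263 ± 13.4, Marco at 178 ± 17.5 and Siglecf at 98.4 ± 3.63, and Cpne5 was last at 46.2 to 52.8, each without overlap with its neighbour in this order. In Cre+ mAMs (n = 3) Krt79 moved from place 6 to place 8 of this order, at 111 ± 71.4 CPM per kb, and overlapped with Marco (147 ± 1.22) and Siglecf (84.6 ± 8.32). In ImmAMs (n = 3) Chil3 was still first at 13759 ± 547 CPM per kb, Itgax (352 ± 6.38) and Mrc1 (265 to 284) were next, and Ear2 followed at 103 to 116. Cpne5 was last in all 3 groups, at 1.07 ± 0.0986 CPM per kb in ImmAMs.

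**Figure D1:**
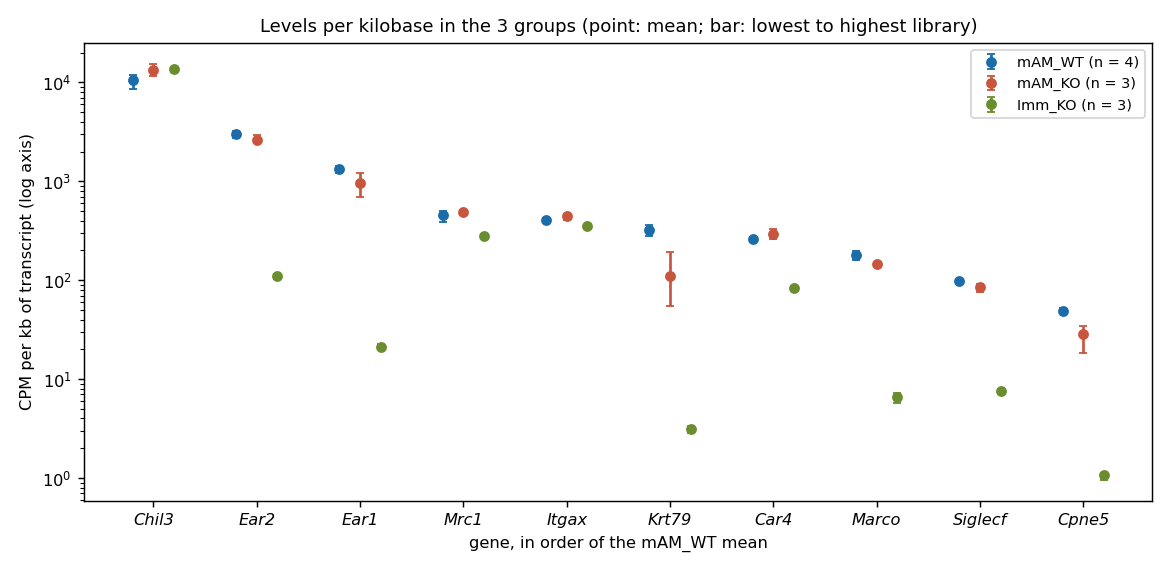
Mean level of each marker per kilobase of its longest protein-coding transcript (log axis) in control mAMs, Cre+ mAMs without replicate 4 and ImmAMs, with bars from the lowest to the highest library. Chil3 is at 8566 CPM per kb or more in every library plotted, while Krt79 goes from a mean of 320 in control mAMs to 111 and 3.12.

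The 10 markers together made up 2.20% to 2.73% of the counted reads in control mAMs, 2.50% to 3.18% in the 4 Cre+ mAM libraries and 2.36% to 2.51% in ImmAMs. The make-up of that sum differed: Chil3 was 61.4% to 66.0% of the summed marker CPM in control mAMs, 68.1% to 75.4% in the 4 Cre+ mAM libraries and 86.8% to 87.2% in ImmAMs. The 3 ranges did not overlap.

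Control against Cre+ mAMs asks what the Cre does to these genes within the mature gate. Krt79 and Cpne5 fell, and the other 8 markers did not pass the test (limma on log2 CPM, Benjamini-Hochberg adjusted p under 0.05 over 12889 genes). In this comparison 4.84% of all genes passed, and 2.59% passed as lower. The study had named Krt79 and Cpne5 among the genes lower in these Cre+ mAMs, so the 2 calls are not independent of that result. The median log2 fold change of the 10 markers was −0.20, beside −0.002 over all genes tested, with 6 markers below 0 and 4 above. The libraries of both groups did not overlap in 5 markers, beside 20.1% of all genes.

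ImmAMs against control mAMs sets the CD11b+ gate of Cre+ mice beside mature control cells. All 10 markers passed the test here, 9 lower and Chil3 higher, in a comparison where 48.1% of all genes passed, 25.3% as lower and 22.8% as higher. None of the 10 overlapped between both groups, beside 51.3% of all genes without overlap. The median log2 fold change of the markers was −4.23, beside −0.003 over all genes. Against Cre+ mAMs, the mature cells of the same genotype, 9 markers were lower in ImmAMs and Chil3 did not pass, where 37.9% of all genes passed (20.2% as lower, 17.7% as higher), and the median was −3.99. The same 9 did not overlap between groups, beside 51.2% of all genes. The comparisons share libraries and are not independent of each other. In RNA of sorted bulk samples, fewer cells that hold a transcript and less of it per cell cannot be told apart.

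**Figure D2:**
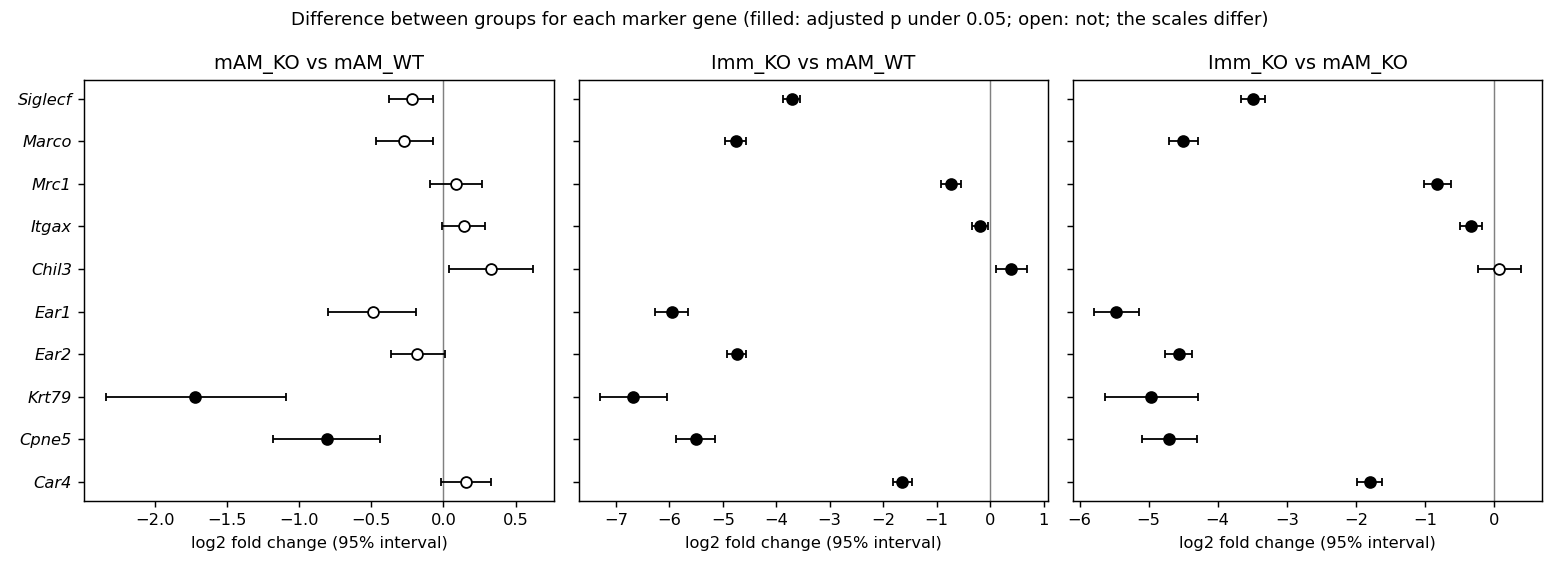
Log2 fold change of each marker in the 3 comparisons with its 95% interval from the limma fit, with filled points for an adjusted p under 0.05. In Cre+ against control mAMs only Krt79 and Cpne5 are filled, while against control mAMs all 10 markers are filled in ImmAMs, 9 of them to the left of 0.

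Siglecf (ENSMUSG00000039013, chromosome 7, 43351341 to 43359531, plus strand) encodes the sialic acid-binding lectin used to sort these cells, which eosinophils also carry. It was at 264, 263, 244 and 256 CPM in control mAMs, at 223, 241 and 198 in Cre+ mAMs with 198 in replicate 4, and at 19.3, 19.7 and 19.7 in ImmAMs. The control and Cre+ mAMs did not overlap, but the difference of −0.22 on the log2 scale (95% interval −0.38 to −0.07) did not pass the test (adjusted p = 0.0922). It did without replicate 2 of the Cre+ mAMs (adjusted p = 0.0411), the library nearest to the controls. In ImmAMs Siglecf fell 13.1-fold against control mAMs (log2 −3.71, SE 0.0723, adjusted p = 2.07e-12), although every group had been sorted as positive for its protein.

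Marco (ENSMUSG00000026390, chromosome 1, 120474538 to 120505024, minus strand) encodes a scavenger receptor that binds bacteria and particles. It was at 316, 377, 363 and 310 CPM in control mAMs and at 283, 286, 281 and 285 in the 4 Cre+ mAM libraries, a tight set just under the lowest control. The log2 difference of −0.27 (SE 0.0923) did not pass (adjusted p = 0.108) in limma and passed in DESeq2 (adjusted p = 0.0356). In ImmAMs it was at 10.9 to 13.8 CPM, 27.1-fold lower than in control mAMs (adjusted p = 2.07e-12).

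Mrc1 (ENSMUSG00000026712, chromosome 2, 14229392 to 14332057, plus strand), the mannose receptor, kept a high level in all groups. Its values were 2688, 2503, 2616 and 2104 CPM in control mAMs and 2600, 2622 and 2660 in Cre+ mAMs with 2304 in replicate 4, so both groups overlapped (log2 0.09, 95% interval −0.09 to 0.27, adjusted p = 0.545). In ImmAMs it was at 1526, 1426 and 1512 CPM, below every mAM library, a 1.66-fold fall against control mAMs (log2 −0.73, SE 0.0840, adjusted p = 1.17e-05). Of Siglecf, Marco and Mrc1, Mrc1 had the smallest difference in ImmAMs.

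Itgax (ENSMUSG00000030789, chromosome 7, 128129547 to 128150657, plus strand) encodes CD11c, the integrin chain whose promoter drives the Cre. It was at 1642, 1687, 1662 and 1520 CPM in control mAMs, at 1903, 1639 and 1837 in Cre+ mAMs with 1937 in replicate 4, and at 1401, 1422 and 1453 in ImmAMs. Cre+ and control mAMs overlapped (log2 0.14, 95% interval −0.01 to 0.29, adjusted p = 0.255). The ImmAMs lay below all mAM libraries, by 1.14-fold against control mAMs (log2 −0.19, SE 0.0699, adjusted p = 0.0389) and by 1.26-fold against Cre+ mAMs (adjusted p = 0.00375). The first of these calls was lost under 11 of 27 alternatives, among them the fits without replicate 1, 2 or 3 of the control mAMs or without any 1 ImmAM library (adjusted p 0.0670 to 0.122). The share of 60-base transcript windows that Itgax has in common with its neighbour Itgad was 6.76%.

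**Figure D3:**
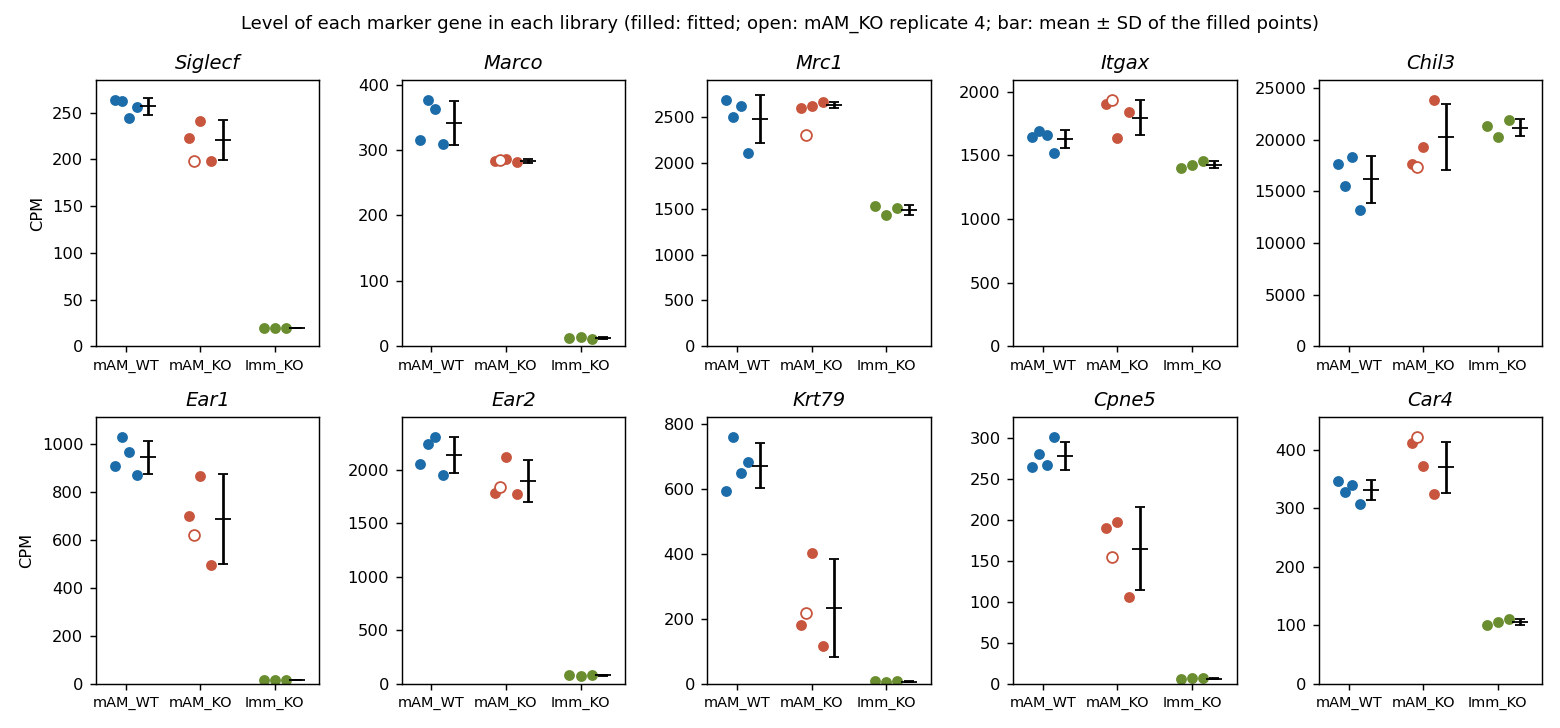
Level of each marker in CPM (axes from 0) in every library, with mAM_KO replicate 4 as an open point and the mean ± SD of the fitted libraries beside it. Siglecf, Marco, Ear1, Ear2, Krt79 and Cpne5 are near 0 in ImmAMs on these axes, while Mrc1, Itgax and Chil3 stay at more than 1400 CPM there.

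Chil3 (ENSMUSG00000040809, chromosome 3, 106147554 to 106167564, minus strand) encodes Ym1, a secreted chitinase-like protein. It was at 17623, 15549, 18297 and 13182 CPM in control mAMs and at 17691, 19337 and 23887 in Cre+ mAMs with 17338 in replicate 4. Both groups overlapped, with replicate 3 of the Cre+ mAMs above all others (log2 0.33, 95% interval 0.04 to 0.62, adjusted p = 0.164), and the difference passed in DESeq2 (adjusted p = 0.0464). The ImmAMs were at 21314, 20272 and 21939 CPM, above every control library (1.32-fold, log2 0.40, SE 0.136, adjusted p = 0.0273). That call was lost under 6 of 27 alternatives: the log2 fold change was 0.00 after quantile normalization, and adjusted p was 0.0560 without replicate 2 of the control mAMs, 0.0829, 0.0548 and 0.0938 without replicates 2, 3 and 4 of the ImmAMs, and 0.0579 with the replicate number as a block. Against Cre+ mAMs, ImmAMs did not differ past the threshold (log2 0.07, 95% interval −0.24 to 0.39, adjusted p = 0.734). Of the 60-base stretches along its transcripts, 21.2% also occur elsewhere, first of all in Chil4, so reads could be split between both genes.

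Ear1 (ENSMUSG00000072601, chromosome 14, 43818765 to 43875517, minus strand) and Ear2 (ENSMUSG00000072596, chromosome 14, 44102654 to 44103534, plus strand) encode secreted ribonucleases of the eosinophil-associated family. Their longest transcripts were 96.0% identical, and 49.1% of the 60-base windows of Ear1 and 32.7% of those of Ear2 occur in other genes, mainly Ear10, 2 pseudogenes and each other. Ear1 was at 908, 1029, 966 and 871 CPM in control mAMs, and at 698, 866 and 494 in Cre+ mAMs with 620 in replicate 4. No Cre+ library reached the lowest control library, but the difference did not pass (log2 −0.49, SE 0.142, adjusted p = 0.0636). It passed without replicate 2 of the Cre+ mAMs (log2 −0.68, adjusted p = 0.00655), in DESeq2 (adjusted p = 0.0141) and with Xist as a covariate (adjusted p = 0.0401).

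Ear2 was at 2059, 2243, 2309 and 1950 CPM in control mAMs and at 1786, 2124 and 1776 in Cre+ mAMs with 1843 in replicate 4, and both groups overlapped through replicate 2 (log2 −0.18, 95% interval −0.36 to 0.01, adjusted p = 0.228). In ImmAMs Ear1 was at 16.1, 14.7 and 14.6 CPM and Ear2 at 83.5, 74.2 and 82.3. Ear1 thus fell 62.2-fold against control mAMs (log2 −5.96, SE 0.142, adjusted p = 1.26e-11), place 7 counted from the largest fall among 12889 genes, and Ear2 fell 26.7-fold (log2 −4.74, SE 0.0846, adjusted p = 2.06e-12). The ratio of Ear2 to Ear1 CPM was 2.18 to 2.39 in control mAMs, 2.45 to 3.60 in the 4 Cre+ mAM libraries and 5.04 to 5.63 in ImmAMs, with no overlap between these ranges. The ratio is a description, since reads of both genes could be split in the counting.

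Krt79 (ENSMUSG00000061397, chromosome 15, 101929332 to 101940324, minus strand) encodes a type II keratin, a filament protein best known from epithelia. It was at 594, 759, 648 and 683 CPM in control mAMs, and at 181, 402 and 116 in Cre+ mAMs with 217 in replicate 4. All Cre+ libraries lay below all controls, and they also differed among themselves, with a coefficient of variation of 64.3% (n = 3) beside 10.3% in control mAMs (n = 4). The fall was 3.28-fold (log2 −1.72, SE 0.289, 95% interval −2.34 to −1.09, adjusted p = 0.00820), place 108 from the largest fall among 12889 genes. It was called under 26 of 27 alternatives, all but the fit without a variance trend (adjusted p = 0.0576). In ImmAMs it was at 6.65, 5.96 and 7.01 CPM (111, 128 and 133 reads), 102-fold below control mAMs (log2 −6.68, SE 0.289, adjusted p = 1.55e-09) and 31.2-fold below Cre+ mAMs (adjusted p = 8.20e-08). Only 1 of the 12889 genes tested had a larger fall in ImmAMs against control mAMs.

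Cpne5 (ENSMUSG00000024008, chromosome 17, 29155556 to 29238167, minus strand) encodes a copine, a protein that binds phospholipids in the presence of calcium. It was at 264, 280, 267 and 301 CPM in control mAMs and at 190, 197 and 106 in Cre+ mAMs with 154 in replicate 4, again without overlap. The fall was 1.75-fold (log2 −0.81, SE 0.172, adjusted p = 0.0226) and was called under 23 of 27 alternatives. It lost its call without replicate 2 of the control mAMs (adjusted p = 0.0599), with only both groups in the fit (0.0592), without a variance trend (0.0812) and with the replicate number as a block (0.0693). In ImmAMs it was at 5.45, 6.47 and 6.38 CPM, 45.6-fold below control mAMs (log2 −5.51, SE 0.172, adjusted p = 1.01e-10).

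Car4 (ENSMUSG00000000805, chromosome 11, 84957786 to 84966044, plus strand) encodes a carbonic anhydrase held on the outer cell membrane. It was at 347, 328, 340 and 308 CPM in control mAMs and at 412, 373 and 325 in Cre+ mAMs with 422 in replicate 4, and both groups overlapped (log2 0.16, 95% interval −0.02 to 0.33, adjusted p = 0.264). In ImmAMs it was at 101, 105 and 111 CPM, a 3.13-fold fall against control mAMs (log2 −1.65, SE 0.0808, adjusted p = 4.60e-09). Its fall was smaller than those of Krt79 and Cpne5, and in Cre+ mAMs its log2 fold change had the opposite sign to theirs.

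The 4 Cre+ mAM libraries stood apart from the controls in a similar order in several markers. In all 6 markers with a mean below the controls, replicate 2 was the highest of the 4 libraries, and replicate 3 was the lowest in 5 of them, all but Siglecf. For Marco the 4 libraries spanned only 281 to 286 CPM, so its order means little. Replicate 2 was at 59.8% of the control mean for Krt79, 70.8% for Cpne5, 91.8% for Ear1 and 99.2% for Ear2. Replicate 3 was at 17.3%, 38.1%, 52.3% and 83.0% for these genes. Itgam, which encodes CD11b, the protein that separated the gates, went the other way: it was at 3.93 CPM in replicate 2, near the 3.52 to 3.85 of the control mAMs, and at 7.87, 9.95 and 7.81 in replicates 1, 3 and 4, a rise of 1.86-fold in the fitted libraries (adjusted p = 0.0479). Xist was at 55.5 CPM in replicate 2 and at 458, 237 and 188 in the others. With Xist as a covariate, Krt79, Cpne5 and Ear1 were called. Over all genes tested, more were also called with this covariate than the 624 called without it. The added call of Ear1 thus came with a general rise in calls. The part of Xist in the order of the libraries was not tested.

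The log2 level of each Cre+ mAM library was also placed on a line from the mean of the control mAMs (0%) to that of the ImmAMs (100%), for the 7 markers whose means differ by at least 1 on this scale. Krt79 went furthest, at 28.2%, 37.8% and 24.3% of the way in replicates 1, 3 and 4 and less in replicate 2. Cpne5 was at 8.99% to 25.2%, Ear1 at 2.02% to 15.6%, Siglecf at 2.40% to 10.1%, Marco at 5.33% to 5.84% and Ear2 at 0.162% to 5.61%. Car4 lay on the far side of the controls in 3 of the 4 libraries (−21.4% to 1.53%). Genes that are high in ImmAMs varied on this scale. Itgam was at 2.11% to 26.2%, and Cx3cr1, a chemokine receptor of monocytes, at 12.3% to 46.7%. The complement genes of interstitial macrophages were at 14.8% to 37.6% (C1qa), −15.0% to 22.4% (C1qb) and −4.30% to 35.9% (C1qc). These complement genes were at 0.344 CPM or less in every mAM library, so few reads set their place. None of them passed the test in Cre+ against control mAMs. The place depends on the scale. On the linear CPM scale, added after the values were seen, Krt79 was 40.6% to 83.5% of the way and Cpne5 29.8% to 63.3%. Itgam was 0.183% to 3.79% of the way and Cx3cr1 0.565% to 6.38%. C1qa was at 0.139% to 1.15%, C1qb at −0.110% to 0.420% and C1qc at −0.128% to 1.36%. A gene that rises from near 0 lies close to the controls on a linear scale by construction.

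**Figure D4:**
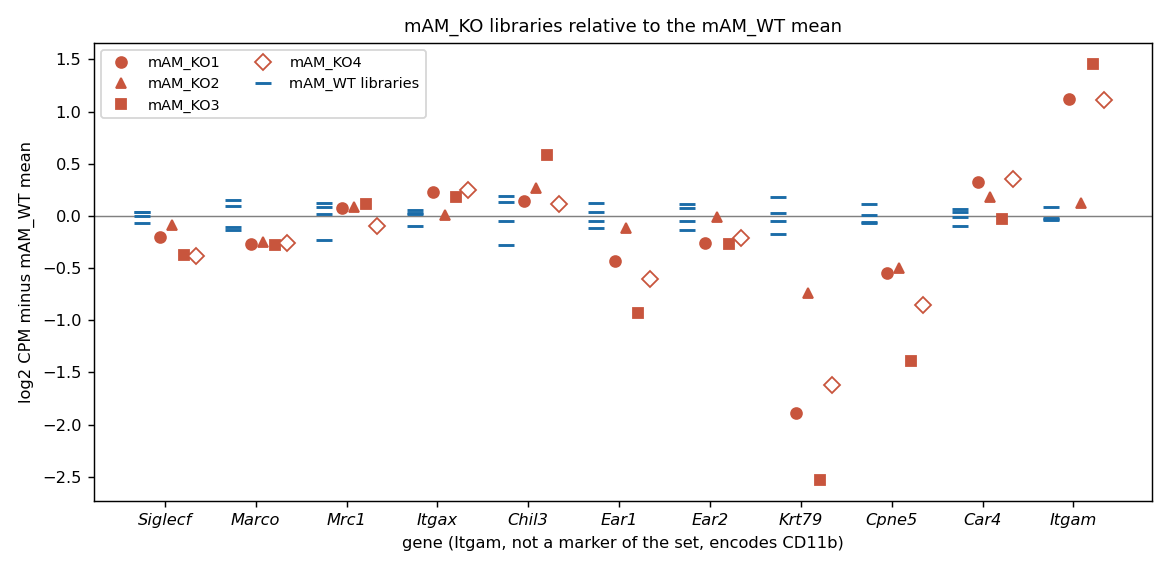
Log2 CPM of each marker, and of Itgam, in the 4 Cre+ mAM libraries minus the mean of the control mAMs (line at 0), with the control libraries as dashes. Krt79 ranges from −0.74 in replicate 2 to −2.53 in replicate 3, while Marco lies between −0.25 and −0.28 in all 4 libraries.

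Markers of other cells were summed per library. The 5 interstitial macrophage genes in the table summed to 0.740 to 1.88 CPM in control mAMs, 1.34 to 5.04 in the 4 Cre+ mAM libraries and 170 to 192 in ImmAMs. The 5 monocyte genes summed to 54.2 to 62.6, 44.4 to 60.9 and 204 to 212 CPM, and among them Ccr2 and Cx3cr1 rose and Treml4 fell in ImmAMs against control mAMs. In Cre+ mAMs Cx3cr1 rose and Treml4 fell. Those of dendritic cells (3 genes) reached 12.8, 10.5 and 27.4 CPM at most, neutrophils (6 genes) 39.6, 41.0 and 62.9, lung epithelium (2 genes) 14.2, 14.9 and 2.74, B and T cells (1 gene) 1.58, 0.977 and 1.31, and erythroid cells (3 genes) 9.49, 2.21 and 2.56. The 6 general macrophage genes summed to 2555 to 2686, 2498 to 2622 and 2850 to 2989 CPM, with the ImmAMs above the range of the mAMs. Of these 6 genes, Csf1r and Adgre1 rose and Mertk, Fcgr1 and Spi1 fell in ImmAMs against control mAMs, Csf1r from 420 ± 34.8 to 1056 ± 46.3 CPM and Mertk from 418 ± 15.3 to 232 CPM (n = 4 and 3). None of the 5 eosinophil or 8 endothelial genes was among the rows used, and they are not analysed here. In ImmAMs, where 9 markers fell, the sums of the interstitial macrophage, monocyte, dendritic cell and neutrophil genes were thus above those of every mAM library. For dendritic cells and neutrophils the ImmAM sums were 24.1 to 27.4 and 52.9 to 62.9 CPM. The lung epithelial sum was lower, and Treml4 fell with the markers. The part of any of these cells in the falls of the markers was not tested.

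Relatives of the markers, from lists chosen with earlier results known, did not all follow them. Among 5 siglecs in the table, Siglec1, the sialoadhesin of macrophages, fell 7.14-fold in ImmAMs against control mAMs (adjusted p = 5.63e-10) and Siglecg also fell, while Siglece (3.57-fold, adjusted p = 1.45e-05) and Cd33 (2.51-fold, adjusted p = 1.28e-06) rose. Cd33 rose in Cre+ mAMs too (1.63-fold, adjusted p = 0.00846), but replicate 4, outside the fit, was at 410 CPM, within the 289 to 445 of the control mAMs. Among 8 scavenger receptors, Msr1 rose 3.15-fold in Cre+ mAMs (from 33.0 ± 9.87 to 105 ± 41.0 CPM, n = 4 and 3, adjusted p = 0.00454) and 12.8-fold in ImmAMs (to 409 ± 37.4 CPM), where Marco fell. Colec12 rose 1.49-fold (adjusted p = 0.0484) and Scarb1 fell 1.42-fold (adjusted p = 0.00701) in Cre+ mAMs. Ly75, the only relative of the mannose receptor in the table, fell 3.88-fold in ImmAMs (adjusted p = 1.34e-08).

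Of the integrins that share a beta chain with CD11c, Itgam rose 47.0-fold in ImmAMs against control mAMs (adjusted p = 1.25e-09), where its protein was also part of the gate, and Itgal rose too. Itgad fell from 30.8 ± 4.96 to 1.11 ± 0.124 CPM (27.5-fold, adjusted p = 1.11e-07) and the shared chain Itgb2 fell 1.33-fold (adjusted p = 1.58e-04). Of 6 further ribonucleases, Rnase2a went from 0.0188 to 0.0737 CPM in control mAMs, which stand for 0 or 1 read in each library, to 0.531 to 3.35 in Cre+ mAMs and 11.4 to 13.1 in ImmAMs, a rise that passed against the controls in both groups, opposite to Ear1 and Ear2. Rnase6, Rnase4 and Rnase2b fell in ImmAMs against control mAMs. Both other keratins in the table, Krt19 and Krt80, fell with Krt79: Krt19 by 1.58-fold in Cre+ mAMs (adjusted p = 0.0342) and 24.6-fold in ImmAMs (adjusted p = 1.76e-10), and Krt80 by 2.02-fold (adjusted p = 0.0384) and 3.97-fold (adjusted p = 2.24e-05). Of 3 copines Cpne3 rose in both comparisons (1.33-fold, adjusted p = 0.0490, and 1.28-fold) and the others did not pass. Replicate 4 of the Cre+ mAMs, outside the fit, was at 111 CPM of Cpne3, within the 91.1 to 121 of the control mAMs. Of 4 carbonic anhydrases none passed in Cre+ mAMs, and Car9 (2.25-fold) and Car5b (1.95-fold) fell and Car13 (1.64-fold) rose in ImmAMs. Of 2 chitinase relatives, Ctbs rose 1.23-fold in ImmAMs (adjusted p = 0.0418) and Chil4 did not pass in any comparison.

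A list of 34 further genes known from alveolar macrophages, 33 of them in the table, had 4 higher, among them Mmp8 and Ctsk, and 4 lower, among them Fabp4, in Cre+ mAMs. Over all genes 2.25% passed as higher and 2.59% as lower there. The median log2 fold change of the list in Cre+ mAMs was −0.08, beside −0.002 over all genes. Fabp4, a fatty acid-binding protein, fell 2.73-fold (adjusted p = 0.00183), the collagenase Mmp8 rose 5.95-fold (adjusted p = 0.00197) and the protease Ctsk rose 1.65-fold (adjusted p = 7.48e-04). In ImmAMs against control mAMs 21 of the 33 were lower, 8 were higher and 4 did not pass, with a median of −0.95 beside the −4.23 of the 10 markers. Over all genes 25.3% passed as lower and 22.8% as higher, with a median of −0.003. Fabp1, another fatty acid-binding protein, fell 52.5-fold (adjusted p = 9.72e-10) and the lipid droplet protein Cidec 43.5-fold (adjusted p = 4.95e-12), while Mmp8 rose 34.7-fold (adjusted p = 5.73e-08). Among general macrophage genes, Spi1, the gene of PU.1, fell 1.38-fold in Cre+ mAMs (adjusted p = 0.0157) and 1.91-fold in ImmAMs (adjusted p = 1.95e-06), and Csf1r rose 2.52-fold in ImmAMs (adjusted p = 1.98e-08). Replicate 4 of the Cre+ mAMs, outside the fit, was at 469 CPM of Spi1, within the 416 to 537 of the control mAMs.

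**Figure D5:**
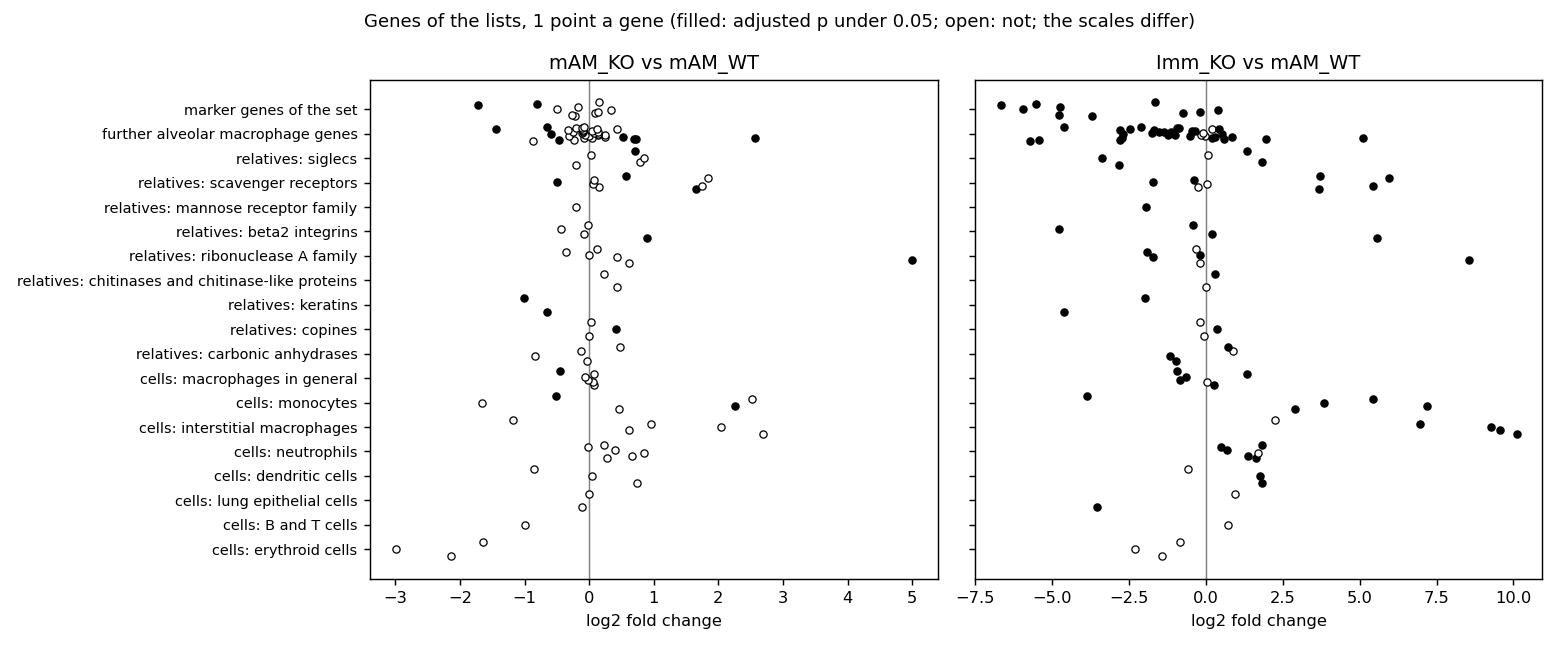
Log2 fold change of each gene of the lists, 1 point a gene, in Cre+ against control mAMs (left) and ImmAMs against control mAMs (right), with filled points for an adjusted p under 0.05. Of the 10 markers 2 are filled on the left and 10 on the right, and the further alveolar macrophage genes lie on both sides of 0 in both panels.

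The genes whose log2 CPM ran most like each marker over the 11 libraries were sought among 9942 other genes, none with a mean under 5 CPM. These libraries fall into 3 groups, so the correlations mostly describe the groups. Sort1 was the nearest gene to Siglecf (r = 0.9989), Marco (r = 0.9994) and Ear2 (r = 0.9988), followed by Cidec, Slco2b1 and Aspm. Matn2 and D630039A03Rik were nearest to Ear1 (both r = 0.9989), Acaa1b (r = 0.9993) and Tmem138 to Cpne5, and Scarb1 (r = 0.9949) and Dnah11 to Krt79. Adgrl3 and Ffar2 were nearest to Car4 (r = 0.9929 and 0.9901), Idh1 and Dnaja2 to Mrc1 (r = 0.9943 and 0.9938), Spp1 and Fgf1 to Itgax (r = 0.9858 and 0.9606), and Prpsap2 and Zfp970 to Chil3 (r = 0.9598 and 0.9585).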

How the data were processed

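RNA-seq was performed on sorted mAMs and ImmAMs. The authors trimmed 60-base single-end reads with Cutadapt, dropped those under 30 bases, mapped them to the GRCm38 transcriptome, estimated counts with RSEM 1.3.1 (per the labels) and applied TMM scaling. The deposited values are CPM, each (whole reads + 0.5) times a fixed step per library, and 100% of the values are whole reads, to within 0.01, once the step is divided out. RSEM shares out reads of near-identical genes, and deposited reads are whole, so they appear rounded. Methods give bronchoalveolar lavage as the source and the series text lung digestion.

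Deposited CPM were taken as log2 with no further pseudocount. 10 libraries (without mAM_KO replicate 4, which the study did not use) were fitted with 1 mean per group in limma 3.58.1 (R 4.3.3, eBayes, with the variance as a trend on mean level), using the 12889 genes that reached 1 CPM in 3 or more of them. The two-sided p-values were adjusted by Benjamini-Hochberg (threshold 0.05). On the recovered reads edgeR 4.0.16 called 566 genes in mAM_KO against mAM_WT, DESeq2 1.42.0 called 1352 and limma-voom 528. Scripts were tested on simulated data. There 11.1% of the DESeq2 calls were false at this threshold, beside 3.38% for limma, 3.85% for limma-voom and 4.76% for edgeR. Gene positions and lengths come from GENCODE vM21 (GRCm38), promoters from RefSeq (GRCm38.p6).

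The markers and lists were chosen with earlier results of these data known. All 10 markers are named in every library, with the 2 most correlated other genes for each, and at most 3 called genes per list and comparison with the largest fold change, where the higher group averaged 5 CPM or more. Siglecg, Itgal, Adgre1, Fcgr1, Rnase2a in mAM_KO and Rnase2b, which complete small counts, and the linear placement were chosen after values were seen. The labels describe individual biological replicates, but each library held reads of both Xist and Ddx3y and may not be a single mouse, so SDs and p-values measure the spread between libraries. Alternatives were all 11 libraries, pseudocounts of 0.1, 0.5 and 1, other filters, other scalings, other variance models and tools, a replicate block, a fold of at least 1.5, each library left out, and, added after seeing the data, Xist as a covariate. Some list genes are not reported here by name.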

Additional observations from a re-analysis of the deposited data

Results flagged for a closer look

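Mrc1 in replicate 4 of the Cre+ mAMs lay apart from the other 3 libraries of its group, at 2304 CPM against 2600, 2622 and 2660. The gap made up 0.833 of the range of the 4 values, just above Dixon's 95% limit for 4 values. This was the only one of 20 sets of 4 values tested (10 markers in 2 groups), and chance alone flags about 5% of such sets. The fit did not use this library.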

How the results depend on the processing

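In Cre+ against control mAMs, 2 markers were called. The count was 1 (Krt79) with only both groups in the fit, 0 without a variance trend in limma and 5 in DESeq2 (Krt79, Cpne5, Ear1, Marco and Chil3). It was 1 to 4 over the fits without 1 library each: 1 without mAM_WT replicate 2 and 4 (with Siglecf and Ear1) without mAM_KO replicate 2. Without the trend, 6 markers and 2861 of 12889 genes had an unadjusted limma p under 0.05, beside 6 markers and 3042 genes with it. The count over all genes went from 624 to 337 with all 11 libraries, 195 with only both groups, 122 without the trend, 315 at a fold of at least 1.5, 1352 in DESeq2 and 163 to 861 without 1 library each. In ImmAMs the count against control mAMs was 8 to 10 and against Cre+ mAMs 8 or 9 over all alternatives, and the calls lost were those of Itgax and Chil3. Over all genes a fold of at least 1.5 took the calls from 6194 to 3438 and from 4891 to 2800. The log2 fold change of Chil3 in ImmAMs against Cre+ mAMs changed sign, uncalled, to −0.16 after quantile normalization and to −0.02 without mAM_KO replicate 1 (−0.02 to 0.19 without 1 library each). Besides the construction of each alternative, the cause was not tested. Calls of single genes outside the 10 markers were not followed under the alternatives, among them Itgam, Colec12 and Cpne3, near the threshold in Cre+ mAMs.

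Same-numbered control and Cre+ mAM libraries deviated together with r = 0.1347, −0.1284, 0.0959 and 0.2457, so the numbers were not taken as pairs. For Cre+ mAMs and ImmAMs of the same number (2, 3 and 4) r was 0.0686, −0.0604 and −0.0302. Whether both gates were sorted from the same mice is not known here, and the fit treated them as separate libraries. With the replicate block, 1 marker (Krt79) and 174 genes were called in Cre+ mAMs, and 8 markers in ImmAMs against control mAMs.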
